A study of Mus musculus with 6 samples.

Results

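The genes of the proteasome, the protease that degrades ubiquitin-tagged proteins, were examined in splenic Tregs with and without the zinc finger protein Zfp335. Members were taken by symbol, as Psm followed by a letter from a to g and a digit, with pseudogene symbols ending in -ps left out. The rule selected 50 of the 32285 entries of the gene table. By their known roles, 7 were core alpha subunits, 7 were constitutive core beta subunits, 3 were immunoproteasome subunits, 6 were ATPases and 11 were non-ATPases of the regulatory particle, 5 were activators or an inhibitor, and 7 were assembly chaperones. A further 4 symbols (Psma8, Psmb11, Psmc3ip and Psme2b) were kept apart.

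RNA-Seq had been done on CD4+CD25+ Tregs from the spleens of C57BL/6 mice, with 3 WT and 3 KO libraries. KO mice carried floxed Zfp335 on both alleles together with ERCre, a Cre recombinase that enters the nucleus only in the presence of tamoxifen. Mice were 6 weeks old when tamoxifen was given, received it in 3 injections, and were sacrificed on day 7. Controls are called wild-type littermates in the sample labels and tamoxifen-treated ERCre mice in the methods, so whether they carried Cre differs between these sources. ERCre is not restricted to Tregs, and other cells of these mice could also have lost Zfp335. The sources do not say whether each library came from a separate mouse or from pooled mice, so p-values here measure the spread between these libraries.

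The proteasome is a barrel of stacked rings, the core particle, in which alpha subunits form the gate and beta subunits hold the cutting sites. The regulatory particle caps the barrel, binds ubiquitin chains, and unfolds and feeds in the substrate with its ring of ATPases. Interferon-gamma and many immune cells add the immunoproteasome subunits Psmb8, Psmb9 and Psmb10, which take the places of the constitutive cutting subunits Psmb5, Psmb6 and Psmb7 in newly built cores and favor peptides that fit MHC class I. Tregs, as T cells, are known to carry high amounts of immunoproteasome.

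Libraries held 133283969 to 209041812 counts, of which the 50 genes took 0.431% to 0.451%. Zfp335 was found at 124, 121 and 115 CPM in the WT libraries and 15.0, 14.3 and 15.1 CPM in the KO libraries (log2 fold change -3.02, standard error 0.046, edgeR adjusted p = 1.2e-13), so each library labelled KO had the lower level. CPM are counts scaled to a common library total with TMM factors, and values are given in the order of replicates 1 to 3. Foxp3, the defining Treg factor, was at 1154, 1120 and 1134 CPM in the WT libraries and 1062, 1047 and 1046 CPM in the KO libraries (log2 fold change -0.11, standard error 0.030, edgeR adjusted p = 0.0163). It was thus high in all libraries and slightly lower in each KO library, and of 7 Treg markers 2 were called higher and 2, Foxp3 among them, lower in KO. Markers of other cells moved with genotype. All 5 B cell markers were lower (summed level 50.9 to 56.0 CPM in WT and 25.7 to 26.9 CPM in KO), as were 5 of 8 myeloid markers (44.6 to 52.9 and 22.1 to 23.7 CPM) and all 6 red cell markers (36.6 to 43.5 and 1.81 to 2.31 CPM). Of the 3 myeloid markers not called, Csf1r (mean 8.80 CPM in WT and 10.3 CPM in KO) and Adgre1 (1.64 and 1.67 CPM) were not lower. None of the 2 CD8 T cell and 3 NK cell markers was called (edgeR, with 0 of these 5 under an unadjusted p of 0.05), and of 8 cycling cell markers 4 were lower and 1 was higher. Xist, the RNA that silences an X chromosome in female cells, was 0.187 to 0.423 CPM in WT and 124 to 145 CPM in KO, and the sex of the mice is not given in the labels. Xist split the libraries exactly as genotype did, so a difference tied to sex cannot be told apart from one of genotype. The part of the marker differences in the results on proteasome genes was not tested. In bulk RNA, fewer cells of a type and less RNA per cell cannot be told apart.

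Most proteasome genes had nearly equal RNA levels in WT and KO Tregs, and a few departed from this. Psmg2, an assembly chaperone, fell by 58.6%. Of the immunoproteasome subunits, Psmb9 fell by 17.3%, Psmb10 fell by 12.1% and Psmb8 fell by 8.07%, while Psmb6, the constitutive subunit whose place Psmb9 takes, was 18.0% higher. Psmd12 of the regulatory particle lid fell by 19.4%. At an edgeR adjusted p under 0.05, 3 of the 49 genes tested were higher in KO (Psmb6, Psmc5 and Psme3) and 8 were lower (Psmg2, Psmd12, Psmb9, Psmb10, Psme4, Psmd1, Psmb8 and Psme1). Among all 17307 genes tested, 12.0% were called higher and 12.1% lower, and the members were read against these shares only as a description, with fewer of them called higher and somewhat more called lower. The groups did not overlap in 18 of the 49 genes, beside 38.3% of all genes tested. With the cutoffs the study used for differential genes (a fold of 1.5 or more, p under 0.05, adjusted p under 0.1), 0 of 49 were higher, beside 2.58% of all genes, and only Psmg2 was lower, beside 4.37%. The study describes these cutoffs for DESeq2 and another Cre line, Foxp3Cre, and here they were applied to the edgeR results of the ERCre libraries. The median log2 fold change was 0.0077 over the 49 genes and -0.0042 over all genes tested. Summed over all members, the level was 4475, 4428 and 4406 CPM in WT and 4424, 4365 and 4359 CPM in KO. With library size alone as the scale, the split of calls became 1 higher and 12 lower, and without WT 1 it became 8 higher and 10 lower.

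**Figure D1:**
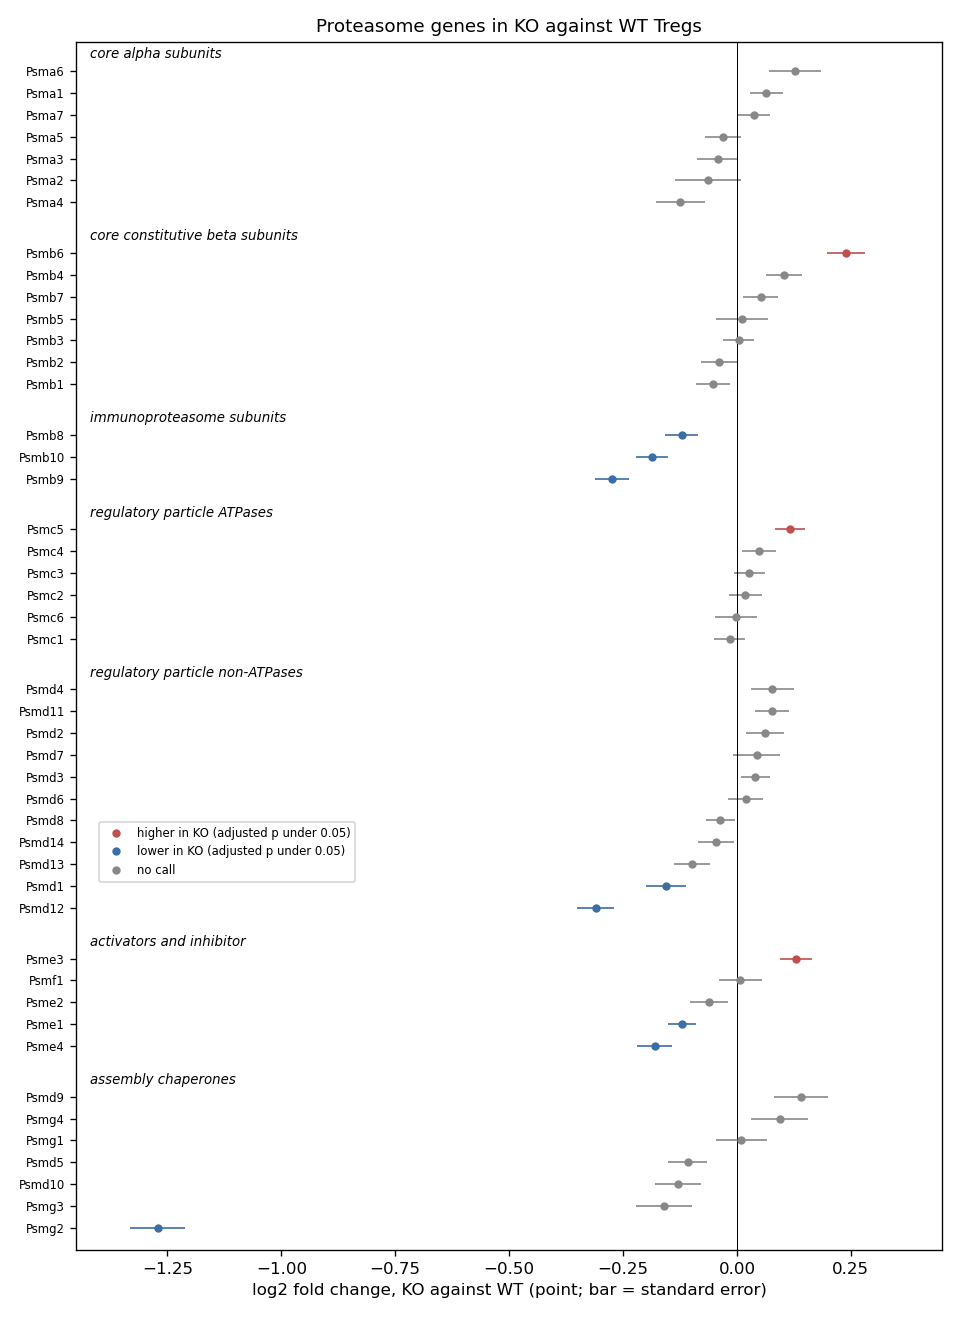
Log2 fold change of each proteasome gene in KO against WT Tregs (horizontal axis, with the standard error as bar), grouped by role and ordered within each group. The symbols kept apart are not drawn. Psmg2 lies at -1.27, the 3 immunoproteasome subunits lie between -0.27 and -0.12, and the constitutive core subunits lie between -0.12 and 0.24.

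In the core particle, the ring of alpha subunits, which opens and closes the entry to the barrel, showed no called member. The log2 fold changes of Psma1 to Psma7 ranged from -0.12 (Psma4) to 0.13 (Psma6), with a median of -0.030. Their summed level was 534, 545 and 565 CPM in WT and 545, 544 and 557 CPM in KO, and the groups overlapped. Without WT 1, Psma2 and Psma4 were called lower and Psma6 was called higher, with log2 fold changes of -0.15, -0.19 and 0.21 (edgeR adjusted p = 0.0225, 0.00291 and 0.000587). Psma2 also changed sign between settings, from -0.15 to 0.026.

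Among the 7 constitutive beta subunits, only Psmb6 was called, and the group had a median log2 fold change of 0.011. Psmb6, which cuts after acidic residues, was found at 79.8, 75.1 and 73.2 CPM in the WT libraries and 90.0, 92.7 and 86.7 CPM in the KO libraries (log2 fold change 0.24, standard error 0.042, edgeR adjusted p = 0.00107). Every KO library lay above every WT library, and the gene was called in all 19 alternative fits. Psmb5, the chymotrypsin-like subunit, was 74.3, 67.4 and 61.4 CPM in the WT libraries and 68.8, 70.1 and 66.0 CPM in the KO libraries (log2 fold change 0.011, standard error 0.058, edgeR adjusted p = 0.922). The WT libraries of Psmb5 spanned the KO range. Psmb7, the trypsin-like subunit, was 62.9, 67.1 and 64.3 CPM in the WT libraries and 68.5, 66.1 and 66.9 CPM in the KO libraries (log2 fold change 0.052, standard error 0.039, edgeR adjusted p = 0.381), with overlapping groups. Psmb3, a structural subunit with a log2 fold change of 0.0034, had the second-smallest difference of all members after Psmc6, at 90.6, 94.0 and 92.7 CPM in the WT libraries and 94.3, 92.9 and 90.8 CPM in the KO libraries (standard error 0.035, edgeR adjusted p = 0.959). Psmb5 and Psmb3 share 54.1% and 55.8% of their 50-base stretches with other genes, mostly pseudogenes, so reads could have been split among copies. Psmb7 shares 28.1% with Nek6, which overlaps it on the other strand, and whether reads were counted by strand is not given. Psmb4, another structural subunit, reached 0.10 without a call (edgeR adjusted p = 0.077). It was called higher in 4 of the 19 alternative fits. These were the fit without WT 1, at 0.14, the replicate block, and the GC offset with and without that block. The beta sum was 648, 641 and 633 CPM in WT and 671, 664 and 651 CPM in KO.

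Stress and interferon factors are known to act on the promoters of proteasome genes. To see which letters the called members carry, the RefSeq promoters of GRCm38.p6, 45 for 42 of the 50 genes, were searched on both strands over the 250 bases before each start site. The letters TGACNNNGC, an antioxidant response element as used by the Nfe2 factors, were in 5 of 45 member promoters (11.1%) and in 10.2% of all 32851 promoters. Psmg2, the most lowered of the called members, had no promoter in this set and was not searched. Psmb6 and Psmd12, the most raised and the second most lowered of the called members, both held the motif. Their bases before the start site, chr11:70525107-70525356 and chr11:107479278-107479483 on the plus strand, are printed 5′ to 3′ with the motif in capitals, without bases annotated as exon.
Psmb6: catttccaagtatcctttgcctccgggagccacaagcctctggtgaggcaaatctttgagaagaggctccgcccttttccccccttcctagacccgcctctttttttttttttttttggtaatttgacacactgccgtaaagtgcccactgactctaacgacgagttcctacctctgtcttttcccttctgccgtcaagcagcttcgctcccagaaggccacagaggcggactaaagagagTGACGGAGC
Psmd12: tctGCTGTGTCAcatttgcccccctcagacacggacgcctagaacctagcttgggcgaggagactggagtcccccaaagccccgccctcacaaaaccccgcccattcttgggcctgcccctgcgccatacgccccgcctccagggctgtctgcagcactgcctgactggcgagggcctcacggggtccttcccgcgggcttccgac
The motif was also in Psmb5, Psmc6 and Psmd9, none of which was called. A match in letters describes these windows and does not show a bound factor.

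All 3 immunoproteasome subunits were lower in KO Tregs, with a median log2 fold change of -0.19. No library of KO reached a WT library in any of them, and the groups were likewise apart in 38.3% of all genes tested. Psmb9, at chr17:34181987-34187764 in the MHC region, was found at 139.6, 136 and 143 CPM in the WT libraries and 120.1, 113 and 113 CPM in the KO libraries (log2 fold change -0.27, standard error 0.037, edgeR adjusted p = 0.000144). Psmb10, on chromosome 8, was 124, 116 and 119 CPM in the WT libraries and 106, 104 and 106 CPM in the KO libraries (log2 fold change -0.19, standard error 0.035, edgeR adjusted p = 0.0019). Both were called in all 19 alternative fits. Psmb8, the most abundant of the 3 and a neighbor of Psmb9 at chr17:34197721-34201454, was 307, 299 and 309 CPM in the WT libraries and 293, 280.4 and 268 CPM in the KO libraries (log2 fold change -0.12, standard error 0.037, edgeR adjusted p = 0.0296). Its call was lost when WT 2, WT 3, KO 2 or KO 3 was left out, with edgeR adjusted p = 0.0627, 0.0518, 0.109 and 0.154. The immunoproteasome sum was 571, 551 and 572 CPM in WT and 519, 498 and 487 CPM in KO, a ratio of KO to WT of 0.888, whereas the ratio was 1.001 for the alpha and 1.03 for the constitutive beta subunits. B cells and myeloid cells are also known to express the immunoproteasome, and their marker sums fell as given above, from 53.9 to 26.3 CPM and from 48.3 to 23.1 CPM. The myeloid markers Csf1r and Adgre1 did not fall. The part of B cells and myeloid cells in the lower immunoproteasome level was not tested. Psmb9 overlaps the oppositely oriented Tap1, with which it has 12.5% of its 50-base stretches in common, and whether reads were counted by strand is not given in the sources used here.

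Interferon-gamma is known to act on genes through gamma-activated sites (GAS, letters TTCNNNGAA), and interferon regulatory factors bind the ISRE (GAAA, any 2 bases, then GAAA). GAS letters were in 2 of 45 member promoters (4.4%, Psmb8 and Psmg1) and in 7.0% of all promoters. ISRE letters were in 3 member promoters (6.7%, Psmb3, Psmd4 and Psmd9, none of them called) and in 3.0% of all. CCAAT, the box bound by NF-Y, was in 15 member promoters (33.3%) and in 33.8% of all. Psmb8 held GAS letters, Psmb9 held a CCAAT box in reverse, and Psmb10 held none of the 4 motifs. For Psmb8 (chr17:34198087-34198116, plus strand) and Psmb9 (chr17:34187331-34187360, minus strand) only the 30 bases around the capital letters are shown, since the whole window is annotated as exon, and for Psmb10 (chr8:105938445-105938642, minus strand) the part outside exons is shown.
Psmb8: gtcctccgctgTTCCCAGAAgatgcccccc
Psmb9: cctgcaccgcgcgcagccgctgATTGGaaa
Psmb10: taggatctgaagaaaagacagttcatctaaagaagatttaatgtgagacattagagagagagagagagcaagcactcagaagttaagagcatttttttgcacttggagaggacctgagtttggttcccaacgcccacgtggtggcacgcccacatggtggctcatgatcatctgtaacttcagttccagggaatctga
Within these windows, the 3 genes had no motif of the 4 in common. The Psmb8 and Psmb9 windows lie inside the annotated spans of these genes. Presence or absence of letters in a window does not show whether a factor acts on the gene, which was not tested.

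To set each immunoproteasome subunit against the subunit it replaces, the log2 ratio of their CPM was taken within each library. For Psmb9 to Psmb6 it was 0.81, 0.85 and 0.97 in WT and 0.42, 0.28 and 0.38 in KO, a difference of -0.52 or -30.0%. The groups did not overlap (p = 0.1 in a two-sided exact permutation test, which cannot go lower with 3 libraries a group, and 0.15 adjusted over the 3 ratios). For Psmb10 to Psmb7 the log2 ratio was 0.98, 0.79 and 0.89 in WT and 0.63, 0.66 and 0.67 in KO, a difference of -0.24. These groups were also apart (exact permutation test, p = 0.1, adjusted p = 0.15). For Psmb8 to Psmb5 it was 2.05, 2.15 and 2.33 in WT and 2.09, 1.999 and 2.02 in KO, a difference of -0.14 within overlapping groups (exact permutation test, p = 0.2, adjusted p = 0.2). This last difference fell to -0.061 without WT 3 and grew to -0.20 without WT 1. Per kilobase of transcript, Psmb9 stood above Psmb6 in WT, at 103 ± 2.73 against 95.3 ± 4.26 CPM per kilobase (SD, n = 3), and below it in KO, at 85.2 ± 3.12 against 113 ± 3.75. The transcript lengths used were 1352 bases for Psmb9 and 798 bases for Psmb6. In CPM not divided by length, Psmb9 stood above Psmb6 in every library of both groups. The SDs hold no error in these lengths. Per kilobase, Psmb8 stayed well above Psmb5 and Psmb10 above Psmb7 in every library of both groups.

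**Figure D2:**
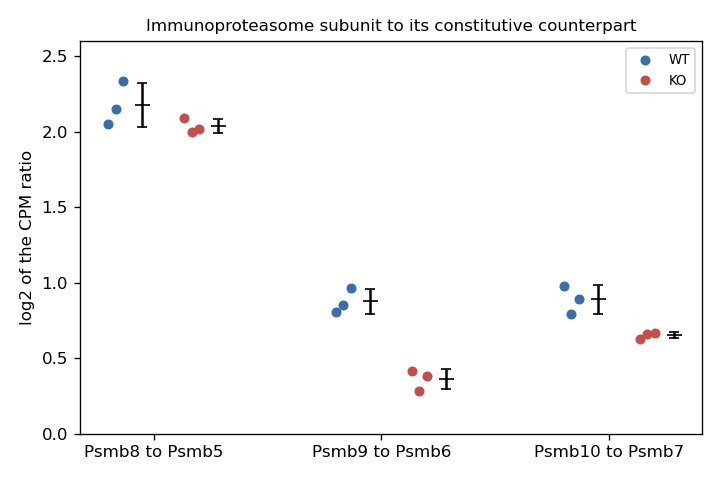
Log2 ratio of the CPM of each immunoproteasome subunit to its constitutive counterpart (vertical axis), with a point for each library, colored by group, and the mean and SD of 3 libraries in black. For Psmb9 to Psmb6 the KO libraries lie between 0.28 and 0.42 and the WT libraries between 0.81 and 0.97, whereas for Psmb8 to Psmb5 the groups overlap.

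In the regulatory particle, the 6 ATPases that unfold the substrate had a median log2 fold change of 0.023, and 1 was called. Psmc5 was 95.1, 93.8 and 93.6 CPM in the WT libraries and 104, 100.5 and 102 CPM in the KO libraries (log2 fold change 0.12, standard error 0.033, edgeR adjusted p = 0.0216). All KO libraries lay above all WT libraries, but the call was lost with library size alone as the scale (edgeR adjusted p = 0.0773) and without WT 2, KO 1, KO 2 or KO 3 (edgeR adjusted p = 0.0856, 0.097, 0.0562 and 0.0729). Psmc6 had the smallest difference of all members, at 52.3, 55.2 and 59.0 CPM in the WT libraries and 55.3, 54.1 and 56.5 CPM in the KO libraries (log2 fold change -0.0026, standard error 0.046, edgeR adjusted p = 0.977). Its groups overlapped fully. With the trend on GC content taken out, however, Psmc6 was called higher at 0.10 (edgeR adjusted p = 0.0334). Psmc1, Psmc2, Psmc3 and Psmc4 lay between -0.016 and 0.049.

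The 11 non-ATPase subunits, which form the base scaffold, the ubiquitin receptors and the lid, had a median of 0.019, with 0 higher and 2 lower. Psmd12, a lid subunit at chr11:107479484-107504362, was 53.3, 55.3 and 52.9 CPM in the WT libraries and 44.8, 43.6 and 41.9 CPM in the KO libraries (log2 fold change -0.31, standard error 0.041, edgeR adjusted p = 0.000118). WT and KO did not overlap, and Psmd12 was called in all 19 alternative fits, between -0.34 and -0.28. Psmd1, a large scaffold subunit, fell from 84.7 ± 4.58 CPM to 76.0 ± 2.23 CPM (SD, n = 3; log2 fold change -0.16, standard error 0.044, edgeR adjusted p = 0.0204). Its call was lost without WT 2, KO 1 or KO 2, where the edgeR adjusted p reached 0.13. The other 9 ranged from -0.098 (Psmd13) to 0.077 (Psmd4). Psmd4, a ubiquitin receptor, and Psmd14, the deubiquitinase of the lid with -0.046, were not called. Without WT 1, Psmd2 and Psmd4 were called higher, at 0.10 and 0.13. The non-ATPase sum was 1174, 1154 and 1125 CPM in WT and 1160.0, 1145 and 1150.0 CPM in KO, nearly the same in both groups.

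Activators other than the regulatory particle moved in both directions. Psme1 and Psme2 form the interferon-inducible ring that opens the core for peptides. Psme1 was 299, 299.9 and 299.5 CPM in the WT libraries and 278, 271 and 277 CPM in the KO libraries (log2 fold change -0.12, standard error 0.030, edgeR adjusted p = 0.0105). The groups were apart, but the call was lost without WT 2 or KO 2 (edgeR adjusted p = 0.0523 and 0.082). Psme2 was 197, 189 and 175 CPM in the WT libraries and 183, 179 and 176 CPM in the KO libraries (log2 fold change -0.062, standard error 0.042, edgeR adjusted p = 0.332). Its groups overlapped, and it was called only without WT 3, at -0.11 (edgeR adjusted p = 0.037). Psme2 shares 55.6% of its 50-base stretches, mainly with Psme2b, so their split is uncertain. The sum of Psme2 and Psme2b was 268, 245 and 219 CPM in WT and 252, 250.3 and 243 CPM in KO (exact permutation test, two-sided p = 0.8).

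Psme3, the nuclear activator, was 159, 171 and 170.1 CPM in the WT libraries and 181, 182 and 183 CPM in the KO libraries (log2 fold change 0.13, standard error 0.036, edgeR adjusted p = 0.0179). KO lay above WT in every library, and the call was lost with library size alone (edgeR adjusted p = 0.0648) and without KO 1, KO 2 or KO 3 (edgeR adjusted p = 0.0583, 0.0759 and 0.0702). Psme4, a large single-chain activator known for degrading acetylated histones, was 62.1, 64.7 and 65.3 CPM in the WT libraries and 54.8, 57.3 and 57.2 CPM in the KO libraries (log2 fold change -0.18, standard error 0.039, edgeR adjusted p = 0.00436). It was lower in each KO library than in any WT library and was called in all 19 alternative fits. Psmf1, an inhibitor that binds the core, was 41.3, 42.1 and 43.8 CPM in the WT libraries and 41.1, 45.0 and 41.5 CPM in the KO libraries (log2 fold change 0.0077, standard error 0.047, edgeR adjusted p = 0.931), with overlapping groups.

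**Figure D3:**
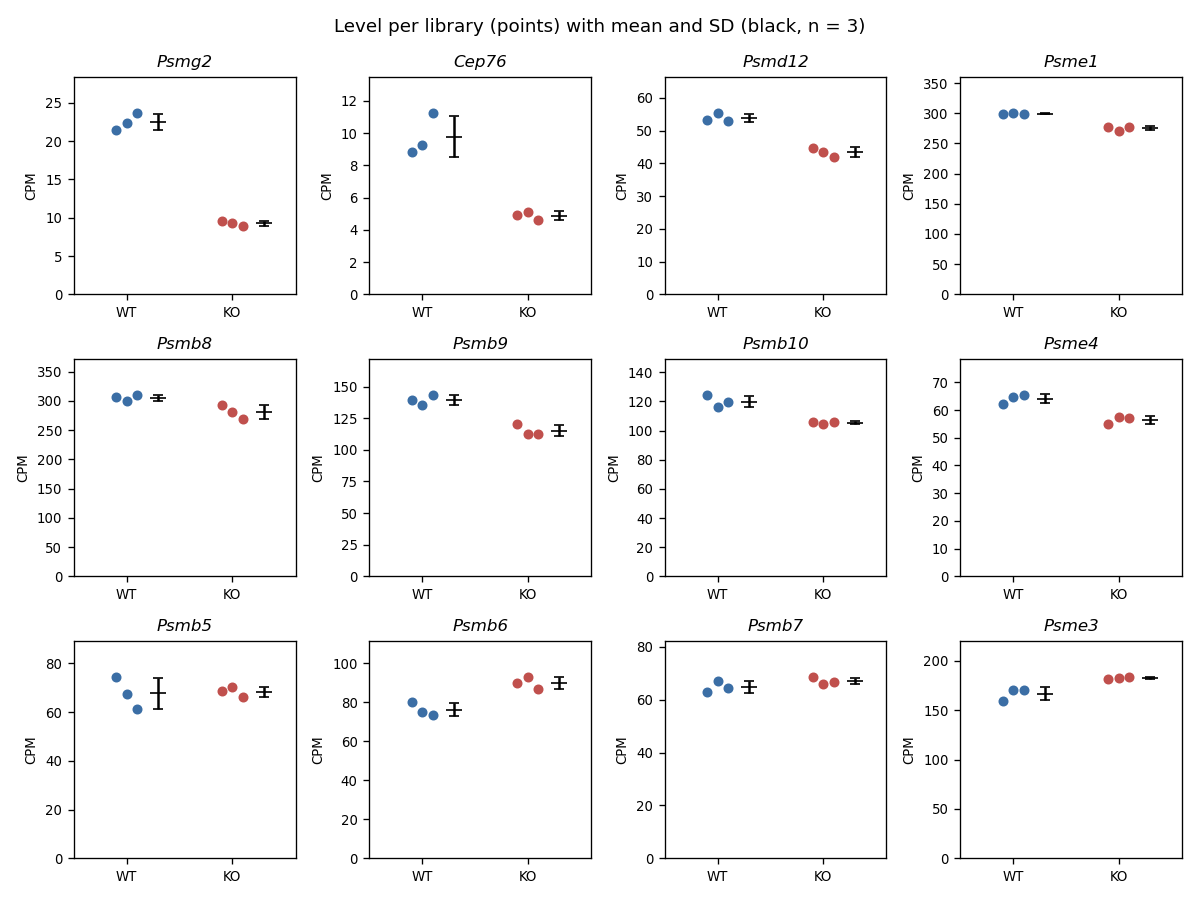
Level of 12 genes in CPM (vertical axes, each starting at 0), with a point for each library and the mean and SD of 3 libraries in black. Psmg2 lies at 8.95 to 9.55 CPM in KO and 21.5 to 23.6 CPM in WT, its neighbor Cep76 is also lower, Psmd12, Psme1, Psme4 and the immunoproteasome subunits lie slightly lower in KO, and Psmb6 and Psme3 lie slightly higher.

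The largest difference was in the assembly chaperones. Psmg1 and Psmg2 form a dimer that gathers the alpha subunits into a ring, and Psmg3 and Psmg4 form another. Psmg2, at chr18:67641599-67654162 on the plus strand, was 21.5, 22.4 and 23.6 CPM in the WT libraries and 9.55, 9.38 and 8.95 CPM in the KO libraries (log2 fold change -1.27, standard error 0.060, edgeR adjusted p = 7.85e-09), on 1703 to 4258 counts per library. The KO level was 0.414 of the WT level and the groups were far apart. It was called in all 19 alternative fits, between -1.30 and -1.24, had rank 46 by p among the 17307 genes, and shared no 50-base stretch with another gene. Its dimer partner Psmg1 was 17.5, 16.0 and 17.2 CPM in the WT libraries and 17.2, 16.6 and 17.2 CPM in the KO libraries (log2 fold change 0.0094, standard error 0.056, edgeR adjusted p = 0.93). The groups of Psmg1 overlapped.

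Psmg3 and Psmg4, the other dimer, had log2 fold changes of -0.16 (edgeR adjusted p = 0.0813) and 0.093 (edgeR adjusted p = 0.323). Psmg3 did not overlap between groups, at 11.1, 10.8 and 10.6 CPM in the WT libraries and 9.76, 9.74 and 9.58 CPM in the KO libraries, and was called with library size alone and with the GC trend taken out. The chaperones of the regulatory particle, Psmd5, Psmd9 and Psmd10, had log2 fold changes of -0.11, 0.14 and -0.13 with no call (edgeR adjusted p = 0.0864, 0.108 and 0.0812). Psmd10 is on chromosome X, and the groups differed in Xist as given above. Over the 7 chaperones the median was -0.11.

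Cep76, a centriole protein gene chosen after its values were seen, starts 263 bases from Psmg2 on the other strand. It was 8.81, 9.28 and 11.2 CPM in the WT libraries and 4.89, 5.13 and 4.62 CPM in the KO libraries (log2 fold change -0.99, standard error 0.098, edgeR adjusted p = 8.75e-06), so the genes on both sides of this shared start region were lower in every KO library. Psmg2 had no entry among the promoters used here, so it was not searched for motifs.

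The 4 symbols kept apart were not called. Psma8, the testis form of an alpha subunit, had 4 to 20 counts per library and was not tested. Psmb11, the thymus form of Psmb5, had 5 to 27 counts per library, against 8256 to 14547 for Psmb5, and a log2 fold change of 0.91 with a standard error of 0.71. At this depth no difference in Psmb11 was detectable. Psmc3ip, a meiotic recombination factor and no proteasome subunit, was 0.094. Psme2b, a copy of Psme2, was 71.0, 55.9 and 44.7 CPM in the WT libraries and 69.5, 71.5 and 66.7 CPM in the KO libraries (log2 fold change 0.27, standard error 0.18, edgeR adjusted p = 0.379), and the groups overlapped.

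Per kilobase of transcript, the members differed far more from each other than between genotypes. In WT the highest levels were Psme1 with 421 ± 0.775 CPM per kilobase (SD, n = 3), Psme2 with 213 ± 13.1 and Psmb8 with 188 ± 3.33, all parts of the interferon-inducible machinery. Psme1 stood above Psme2 in every library, and the Psme2 libraries of WT (lowest 199) stood above the highest of Psmb8 (190.0). The lowest were Psmd9 with 7.54 ± 0.449 and Psmd5 with 9.43 ± 0.302, both chaperones, apart from the 4 symbols kept aside. Medians in WT were 68.4 for the alpha, 89.0 for the constitutive beta and 103 for the immunoproteasome subunits, 63.4 for the ATPases, 42.4 for the non-ATPases, 62.5 for the activators and inhibitor, and 13.8 for the chaperones. In KO the immunoproteasome median was 85.3 and the constitutive beta median 89.9. By library, the immunoproteasome median was the higher in each WT and the lower in each KO library. In every library these medians were the levels of Psmb9 and Psmb5, so this sets Psmb9 beside a subunit that it does not replace. The order rests on the annotated lengths and on the counts of Psmb9 and Psmb5. These share 12.5% and 54.1% of their 50-base stretches with other genes. Psmg2 fell from 19.1 ± 0.919, beside Psmg1 at 18.3 ± 0.852, to 7.88 ± 0.263, near Psmd9 at 8.29 ± 0.402.

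**Figure D4:**
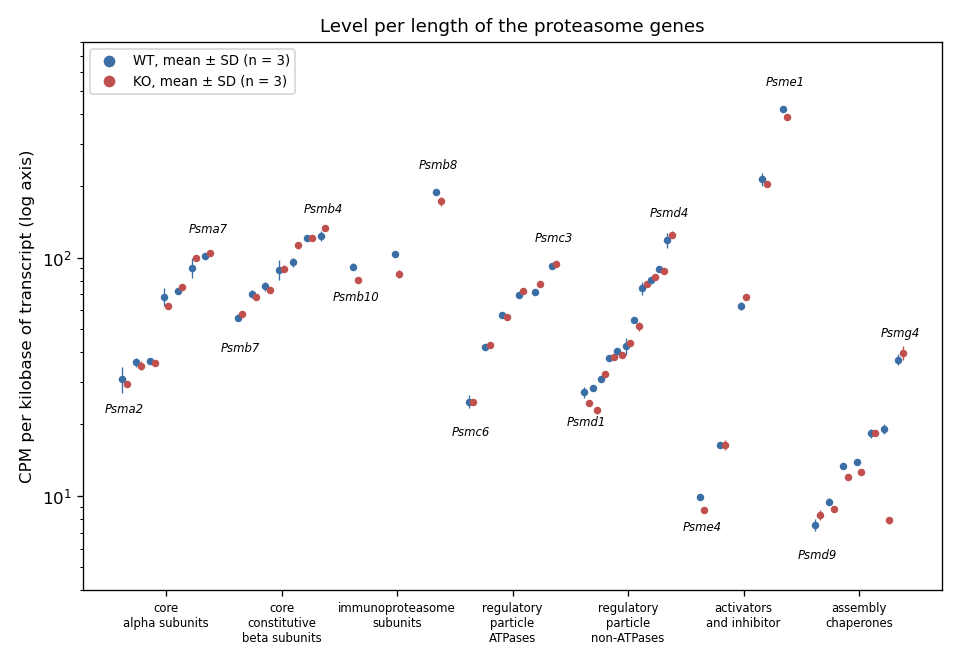
Level per kilobase of transcript of each member (vertical log axis, CPM per kilobase) by role, as the mean and SD of 3 libraries in WT and KO. The highest points are Psme1 at 421 and Psmb8 at 187.5 among their groups in WT, and the chaperones, from 7.54 for Psmd9 to 37.3 for Psmg4, have the lowest group median, 13.8, with some members of other groups among them.

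The proteasome works with partners outside the rule, such as further subunits, ubiquitin carriers, shuttles and the factors that set its gene expression. Of 30 such genes in the table, 7 were higher, 0 were lower and 23 were not called, with a median log2 fold change of -0.0038, beside the 12.0% higher and 12.1% lower of all genes. Zfand2a, a stress-induced proteasome-binding protein, was 58.6, 55.9 and 60.7 CPM in the WT libraries and 77.5, 79.0 and 77.8 CPM in the KO libraries (log2 fold change 0.42, standard error 0.040, edgeR adjusted p = 5.04e-06). Adrm1, a ubiquitin receptor of the regulatory particle, was 125, 122 and 121 CPM in the WT libraries and 144, 142 and 143 CPM in the KO libraries (log2 fold change 0.22, standard error 0.033, edgeR adjusted p = 0.00028). In both, KO was above WT in every library. Nploc4, a cofactor of the unfoldase Vcp, rose by 0.18 (edgeR adjusted p = 0.00236) and the shuttle Ubqln4 by 0.15 (edgeR adjusted p = 0.0088), of which Ubqln4 lost its call without KO 2 (edgeR adjusted p = 0.0562). Zfand5, another ubiquitin-binding protein, was called at 0.10. Nfe2l1, the factor that raises proteasome genes when proteasome activity falls short, was 129.5, 124 and 117 CPM in the WT libraries and 121, 121 and 127 CPM in the KO libraries (log2 fold change -0.0017, standard error 0.042, edgeR adjusted p = 0.983). Its groups overlapped. Pomp, which completes the core together with the Psmg chaperones, was -0.020 (edgeR adjusted p = 0.819).

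Because the immunoproteasome serves MHC class I and is known to be induced through interferon-gamma, 13 genes of class I processing and interferon signaling were set beside it. Of these, 1 was higher, 2 were lower and 10 were not called, beside the 12.0% higher and 12.1% lower of all genes, with a median log2 fold change of -0.052. Irf8 fell by 13.1% (log2 fold change -0.20, edgeR adjusted p = 0.00291), and Ifngr2, a chain of the interferon-gamma receptor, was higher by 32.5% (log2 fold change 0.41, edgeR adjusted p = 4.85e-06). Irf1, a factor known to act on the immunoproteasome genes, was 336, 330.4 and 338 CPM in the WT libraries and 349, 343 and 337 CPM in the KO libraries (log2 fold change 0.035, standard error 0.031, edgeR adjusted p = 0.465). Tap1, the peptide transporter gene that starts 211 bases from Psmb9 on the other strand, was 527, 480.2 and 455 CPM in the WT libraries and 480.1, 487 and 473 CPM in the KO libraries (log2 fold change -0.023, standard error 0.046, edgeR adjusted p = 0.775). Irf1 and Tap1 both overlapped between groups, and whether the change of Psmb9 differed from that of Tap1 was not tested.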

How the data were processed

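Bulk RNA-Seq of 3 WT and 3 KO Treg libraries was analysed. Raw counts, with a gene symbol for each entry, were deposited by the authors. Libraries were assigned from the sample titles, and 0 columns were unmapped. The submitters' processing notes name HISAT2, DESeq2 and the build mm10, and the counter, its annotation and its use of strand are not given in the sources used here. For each of 40 repeated symbols, the entry with the most counts kept the name.

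In R 4.3.3, edgeR 4.0.16 was run (glmQLFTest, TMM scaling, robust, newer method) on the 17307 genes kept by filterByExpr, with Benjamini-Hochberg adjustment over all of them and calls at an adjusted p under 0.05. Standard errors were derived from the F statistic. Psma8 was removed by the filter. The libraries held 133283969 to 209041812 counts. CPM used TMM-scaled library sizes, and ratios were taken on the log2 CPM scale (prior count 2) with two-sided exact permutation tests. Levels per kilobase used transcript lengths from GENCODE M21 (GRCm38), which also gave positions and 50-base stretches shared with other genes. Promoters came from RefSeq (GRCm38.p6).

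The members, the gene lists and the promoter search were chosen with earlier results of these data known. Values in every library were given for the immunoproteasome subunits, Psmb5 to Psmb7, the activators and inhibitor, the called member with the largest change in each direction of each group, and the 2 smallest changes, and others by range. From the lists outside the rule, the 5 called genes with the largest change were chosen, with Nfe2l1, Tap1 and Irf1, and some genes of these lists are not reported here. Psmg1, Psmg3, Cep76, Psme2b and other genes given with values lie outside this rule and were chosen after their values were seen. Paaf1 of the 31 partner genes was not matched.

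Alternatives were DESeq2 size factors, upper-quartile factors or library size only, DESeq2 1.42.0, the legacy edgeR method, limma-voom (limma 3.58.1), no filter or a stricter filter, a replicate block, removal of each library in turn, removal of genes for haemoglobin, immunoglobulin, ribosomal proteins and mitochondrial RNA, offsets for GC content or transcript length, the study's cutoffs, and prior counts of 0.5 and 8. No protein sequence was used here.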

Additional observations from a re-analysis of the deposited data

How the results depend on the processing

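No alternative was added after the data were seen. Across the 19 alternative fits, Zfp335, Psmg2, Psmd12, Psmb9, Psmb10, Psmb6 and Psme4 kept their direction and call. The 3 higher calls became 1 with library size only, 5 with the GC offset, 5 with the GC offset and replicate block, 0 under the study's cutoffs, and 1 to 8 with 1 library left out. The 8 lower calls became 12 with library size only, 10 with the GC offset and 1 under the study's cutoffs. With 1 library left out they became 5 to 10, the lowest without WT 2 or KO 2. The cause was not tested.

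The replicate numbers of the labels were checked as pairs. The labels do not say that these numbers pair animals, so the libraries were treated as unpaired. Around their group means, WT and KO libraries of the same number correlated at 0.028, 0.0082 and 0.033 across genes. With the replicate block, 4 members were higher (Psmb4 added) and 8 lower, the immunoproteasome median was -0.19 and Psmg2 was -1.27.

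Group medians near 0 moved by more than the SD between libraries. With upper-quartile factors the medians were -0.0042 (beta), 0.0081 (ATPases), 0.0043 (non-ATPases), -0.077 (activators and inhibitor) and -0.12 (chaperones). With library size only, in the same order, they were -0.020, -0.0081, -0.012, -0.093 and -0.14. The stricter filter (average log2 CPM from 1 up) gave 0.011 (non-ATPases) and -0.069 (activators and inhibitor), and the length offset gave 0.025 (non-ATPases). The GC offset gave 0.014 (alpha), -0.012 (beta), 0.0069 (non-ATPases) and -0.085 (chaperones), and with the replicate block 0.015, -0.0089, 0.0070 and -0.083. With 1 library left out, medians ranged from -0.044 to 0.026 (alpha), 0.0025 to 0.036 (beta), 0.018 to 0.040 (ATPases), -0.015 to 0.027 (non-ATPases), -0.11 to -0.024 (activators and inhibitor) and -0.13 to -0.085 (chaperones). The immunoproteasome median ranged from -0.21 to -0.16 with 1 library left out and was -0.22 with library size only.

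Genes with log2 fold changes near 0 changed sign. Psmb5 was -0.0042 (upper quartile), -0.020 (library size), -0.012 (GC), -0.0089 (GC and block) and -0.051 to 0.080 with 1 library left out. In the same order Psmf1 was -0.0066, -0.023, -0.0015, -0.0028 and -0.035 to 0.032, and Psmb3 was -0.011, -0.027, -0.014, -0.014 and -0.013 to 0.019. With the stricter filter, Psmf1 was -0.0006 and Psmb3 -0.0043. Psmc6 was 0.0008 (limma-voom), 0.001 (no filter), 0.10 (GC), 0.10 (GC and block) and -0.044 to 0.042 with 1 library left out. Nfe2l1 was 0.0002 (DESeq2), 0.0014 (no filter) and -0.039 to 0.032 with 1 library left out, and Tap1 was -0.069 to 0.036. Only Psmc6 under the GC offsets was called.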

Other observations

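Several proteasome genes start within 1000 bases of a protein-coding gene that runs the other way. Of 12 such neighbors 11 were tested, and 1 was called, Cep76 beside Psmg2 (lower). Among all genes tested, 12.0% were called higher and 12.1% lower. A count of calls does not weigh the size of a change, and Cep76 was lower by 49.5%. Whether the pair of Psmg2 and Cep76 is unusual was not tested. Other tested neighbors had log2 fold changes of -0.12 for Ss18l1 (beside Psma7), -0.087 for Tbp (Psmb1) and -0.045 for Mrpl32 (Psma2). They were -0.062 for Sirt3 (Psmd13), -0.027 for Rnf31 (Psme2), 0.013 for Dnajc2 (Psmc2), 0.030 for Ftsj3 (Psmc5) and 0.031 for Atg4a (Psmd10). AY074887 (Psma4), with a mean of 0.225 CPM in WT, was 0.13, and Tap1 (Psmb9) was -0.023. Psmc5 was called higher, and Ftsj3, which starts 75 bases away, was at 108, 108 and 105 CPM in the WT libraries and 108, 107 and 112 CPM in the KO libraries (edgeR adjusted p = 0.597). Whether neighbors differed from each other in their change was not tested.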
